A study of Arabidopsis thaliana with 36 samples.

Results

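Small polysomal RNA at the end of the night was compared with small polysomal RNA of the early night in Arabidopsis seedlings. Of the 36 arrays of the series, 6 belong to this comparison: 3 arrays of plants harvested at 6am and 3 of plants harvested at 12am, chosen by their labelled time and fraction. All plants carried the genotype CCA1-ox in the Columbia background, which overexpresses the clock gene CCA1, and the labels do not name the promoter. Seedlings were 10 days old, raised on agar plates that held 1% sucrose, and each day had 16 h of light, which came on at 6am, followed by 8 h of dark. The 12am harvest thus fell 2 h after lights off and the 6am harvest 8 h after it, and the labels do not say whether plants were taken at 6am before or after the light came on. The aerial part was harvested, and its RNA was fractionated into non-polysomal, small polysomal and large polysomal fractions. Wild-type plants are not analysed here, so whether a change over the night depends on the transgene, which all arrays share, was not tested. The labels do not say whether the 3 replicates of a time were separate cultures, and the spread behind each p-value is therefore that between these samples only, some of which may be technical.

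A polysome is an mRNA with several ribosomes on it. The small polysomal fraction holds transcripts with few ribosomes, such as short coding sequences or mRNAs on which translation starts rarely, and the large polysomal fraction those with many. A value in 1 fraction therefore moves with the total amount of a transcript, with the share of it on ribosomes and with the number of ribosomes on it, and 1 fraction alone cannot tell these apart. In the night, leaves live on starch made in the day, and photosynthesis is at rest. Towards dawn the clock, of which CCA1 is a morning component, phytochromes and the state of the carbon reserves together change the transcripts of growth, light signalling and photosynthesis. In bulk tissue, fewer cells of a type and less RNA per cell cannot be told apart.

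Values are log2 expression values of probe sets, from 2.15 at the lower end to 15.55, and a difference of 1 is 2-fold. Values near the lower end are compressed. Across the 12635 probe sets analysed (5 or more on at least 3 of the 36 arrays), arrays correlated with r of 0.982 to 0.99 within 12am, 0.97 to 0.986 within 6am and 0.946 to 0.964 between the times. No pair of arrays was identical. Replicate 1 of 6am stood apart: 64 of the 66 measured plastid-encoded transcripts had their highest value of the 6 arrays on it. Some groups of nuclear genes also had many of their lowest values on it, but the share over all probe sets was not computed. Of 22 measured redox genes, 13 had their lowest value on this array and 2 their highest. Of 13 measured cold, dehydration and late embryogenesis genes, 7 were lowest and 2 highest on it. Other nuclear groups did not share this. Of 28 measured thylakoid genes 6 were lowest and 2 highest on it, and of 7 carbon fixation genes 1 and 1. Results without it are given for part of the genes and groups below, but not for the redox or tetrapyrrole genes as a group. The poly(A) spike-in probe sets had a mean of 6.74 to 7.63 on the 12am arrays and 6.18 to 8.09 on the 6am arrays, highest on 6am replicate 1. The 3′ minus 5′ log2 signal of the actin control was 8.8 to 9.18 at 12am and 9.09 to 9.37 at 6am. For the GAPDH control it was 8.55 to 8.98 and 8.27 to 9.24. For the ubiquitin control it was 4.39 to 4.52 and 4.23 to 4.43.

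Between 12am and 6am, 2884 probe sets (22.8%) were called in small polysomal RNA (limma over all 36 arrays, Benjamini-Hochberg adjusted p under 0.05). Of these, 1274 (10.1%) were higher and 1610 (12.7%) lower at 6am. Of all probe sets, 923 (7.31%) were called with a change of at least 2-fold. Of these, 355 (2.81%) were higher and 568 (4.5%) lower. The median size of the difference was 0.819 among called probe sets and 0.313 among all, beside a median SE of 0.212. The values of 3 against 3 arrays did not overlap for 4795 probe sets (38%), with 6am above 12am for 18.1% and below it for 19.8%. At an unadjusted p under 0.05, 34.8% passed. In large polysomal RNA 21.1% of probe sets were called between the same times, and in non-polysomal RNA 34.4%. Without 6am replicate 1, 2510 probe sets were called (1113 higher and 1397 lower), 2166 of them among the 2884. Without 12am replicate 2, 1953 were called, with 808 higher and 1145 lower. Leaving out both replicate 2 arrays, with replicate 2 of all other groups, left 706 calls. Spike-in means differed between arrays of 1 time (6.18 to 8.09 at 6am), so a shift to the same level also moves replicates apart. The part of that in the counts given with this shift was not tested. With arrays set to the same spike-in level 154 were called, 71.4% of them higher against 44.2% as deposited, and the median of all probe sets moved from 0.02 to 0.32. Higher and lower below thus mean against the bulk of probe sets on the same array.

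Regulators of light signalling and flowering included the called gene with a symbol that changed most among those above 5 at both times. HYH (AT3G17609), a bZIP transcription factor that works beside HY5 in seedlings exposed to light, was 7.09-fold higher at 6am. Its values were 7.06, 7.59 and 6.56 on the 12am arrays and 9.99, 9.96 and 9.73 on the 6am arrays (log2 difference 2.83 ± 0.33, SE, n = 3 per group, limma adjusted p = 3.8e-07). All 3 of the 6am arrays lay above all 3 of 12am. HYH stayed at 10.22 at 12pm and 10.04 at 6pm, so its 12am level was the low point of the 4 times.

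FHL (AT5G02200), which helps carry phytochrome A into the nucleus, took another course over the day. It measured 6.44, 5.90 and 7.33 at 12am and 7.70, 7.87 and 8.49 at 6am (1.46 ± 0.39, adjusted p = 0.0062), but 4.63 at 12pm and 4.71 at 6pm. FHL was thus highest at the end of the night, and it was not called without 12am replicate 2 (1.13, adjusted p = 0.063). FY (AT5G13480), an RNA 3′-end processing factor of the autonomous flowering pathway, rose by 0.85 ± 0.21, from 6.58, 6.93 and 7.17 to 7.74, 7.54 and 7.94. LD (0.59 ± 0.20), another gene of that pathway, and BLUS1 (AT4G14480, 0.93 ± 0.32), a kinase of the blue-light response of guard cells, were called as well. The calls of LD and BLUS1 were each lost without certain single arrays: LD without any array but 12am replicate 3, and BLUS1 without 6am replicate 1 or 3 or 12am replicate 2 or 3.

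Of 14 measured genes of the group of light, clock and flowering regulators, 5 were higher and 0 lower (median 0.24), beside 10.1% and 12.7% of all probe sets. Without 6am replicate 1 it was 3. Among those not called was GIGANTEA (GI), a clock gene with an evening peak, at 7.25, 6.93 and 7.35 at 12am against 6.60, 6.64 and 7.04 at 6am (-0.42 ± 0.25, adjusted p = 0.24). COR27, an evening-phased repressor in the clock, had values of 11.75, 11.53 and 11.34 against 11.83, 11.38 and 11.47 (0.02 ± 0.21, adjusted p = 0.97), although it was at 5.30 at 12pm. The clock regulator TIC measured 0.50 ± 0.21 (adjusted p = 0.083). Clock genes such as CCA1, LHY and TOC1 are not analysed here.

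**Figure D1:**
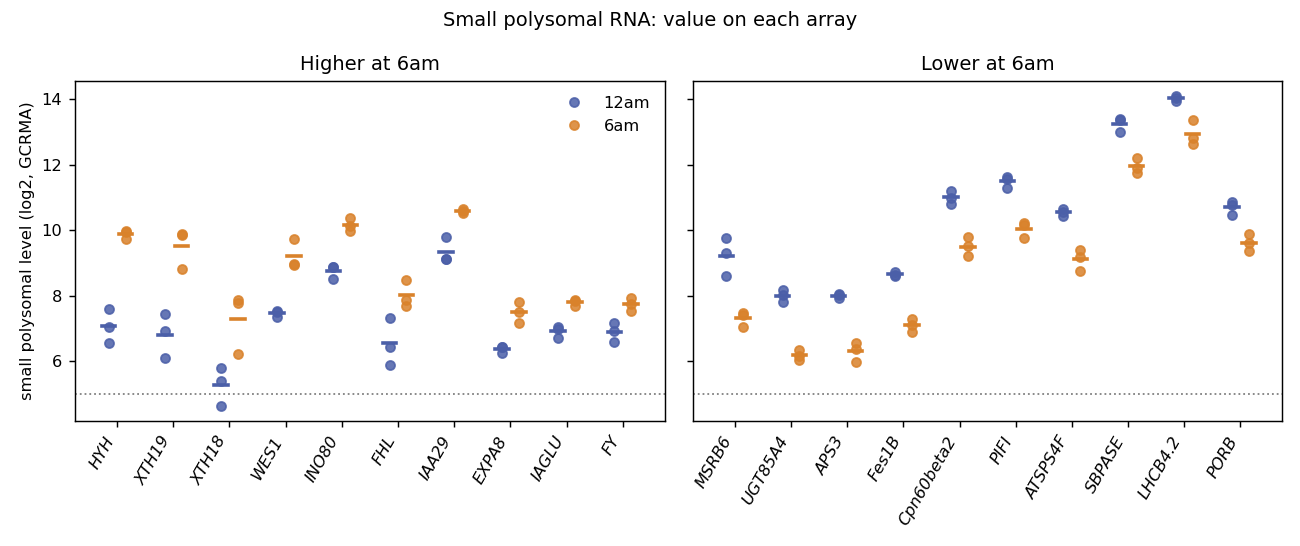
Log2 small polysomal level (y axis) of 20 called genes on each of the 6 arrays; points are arrays, 12am in blue and 6am in orange, bars are means of 3, and the dotted line marks the filter value of 5. For FHL the lowest 6am array, at 7.70, lies just above the highest 12am array, at 7.33, while for HYH the groups are over 2 log2 units apart.

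Of the auxin genes called, most were higher at 6am, and genes that loosen the cell wall changed in both directions. Auxin drives the elongation of stems and petioles, and its level is held in check by GH3 enzymes, which join it to amino acids, and by glucosyltransferases. Of 9 measured auxin genes, 5 were higher at 6am and 1 lower, beside 10.1% and 12.7% of all probe sets, with a median of 0.88 against 0.02. With arrays set to the same spike-in level 1 was higher and 0 lower (median 1.19), and without replicate 2 there were 4 and 0 (median 0.62). The median over the group was 7.42 to 7.54 on the 12am arrays and 8.38 to 8.46 on the 6am arrays. IAA29 (AT4G32280), an Aux/IAA repressor of auxin response, was at 9.11, 9.11 and 9.79 at 12am and at 10.60, 10.65 and 10.53 at 6am (1.26 ± 0.23, adjusted p = 0.00019). Its level was already high at 12am, since it was at 6.32 at 12pm and 6.52 at 6pm.

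Of the conjugating enzymes, WES1 (AT4G27260), also named GH3.5, was at 7.50, 7.36 and 7.54 at 12am and at 8.94, 9.73 and 8.97 at 6am (1.75 ± 0.26, adjusted p = 1.4e-05). GH3.3 was more spread, with 6.31, 5.66 and 7.01 against 6.49, 8.38 and 8.08 (1.32 ± 0.45, adjusted p = 0.032). Its groups overlapped, and it was not called without 6am replicate 2 or 3 or 12am replicate 1 or 2. The auxin glucosyltransferase genes UGT74D1 (1.02 ± 0.20) and IAGLU (0.88 ± 0.18) rose, and both were also called in the other fractions, IAGLU with 1.01 in large polysomal and 0.93 in non-polysomal RNA. IAA18 (-0.61 ± 0.16), a further Aux/IAA gene, fell, but was not called without 6am replicate 2 (-0.47, adjusted p = 0.063).

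Expansins and xyloglucan endotransglucosylases (XTH) loosen and remodel the wall of growing cells. Of 12 measured members, 5 rose and 3 fell (median 0.67), so the family was split. Of all probe sets, 10.1% were called higher and 12.7% lower. With arrays set to the same spike-in level 1 was higher and 0 lower, and without replicate 2 there were 1 and 2. XTH19 (AT4G30290) was at 6.93, 6.09 and 7.43 at 12am and at 8.83, 9.89 and 9.86 at 6am, a rise of 2.71 ± 0.48 (6.53-fold, adjusted p = 0.00013). Its neighbour XTH18 (AT4G30280) rose by 2.01 ± 0.48, from 4.65, 5.81 and 5.39 to 6.24, 7.86 and 7.77. In both genes 6am replicate 1 was the lowest of the 6am arrays. XTH18 and XTH19 are close relatives, and whether their probe sets share signal was not tested.

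The expansin gene EXPA8 rose by 1.11 ± 0.23 and the expansin-like gene EXLA3 by 1.55 ± 0.35. EXPA16 (1.00 ± 0.27) rose as well, from a 12am mean under 5. The members that fell were EXPB3 (-1.55 ± 0.32), XTH32 (-1.27 ± 0.22) and XTH16 (-1.06 ± 0.27). EXPB3 and XTH32 had been high in the light, at 8.34 and 8.65 at 6pm, and ended the night under 5. XTH16 differed from them: it was at 4.57 at 12pm and 4.94 at 6pm, and was highest at 12am.

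In the wider group of 26 cell wall genes, which includes the 12, 6 rose and 5 fell (median -0.17, or 0.13 with arrays set to the same spike-in level and 0.03 without 12am replicate 1). The counts of this paragraph stand beside 10.1% of all probe sets called higher and 12.7% lower. The pectin methylesterase gene ATPMEPCRB (AT4G02330) rose by 2.04 ± 0.36 from a 12am mean under 5. CSLA03, of a family that makes mannans, fell by 1.47 on the log2 scale (SE 0.20, from 6.33, 6.53 and 5.99 to 4.91, 4.79 and 4.73). COBRA (COB), which guides cellulose deposition, was called lower (-0.74 ± 0.27), but not without 6am replicate 2 or 3 or 12am replicate 1 or 2. Of 12 measured trichome birefringence-like genes, a family that acetylates wall polymers, 5 fell and 0 rose (median -0.22, and 0.08 with arrays set to the same spike-in level). TBL40 (AT2G31110) fell most (-2.08 ± 0.29), from 6.95, 6.99 and 6.72 to 4.07, 5.27 and 5.10. Of 7 measured tubulin genes, 1 rose, 1 fell and 5 were not called (median 0.06). The beta-tubulin gene TUB1 rose from 7.36, 7.23 and 7.92 to 8.46, 9.14 and 8.81 (SE of the difference 0.34, adjusted p = 0.0055). TUB5, also a beta-tubulin gene, fell from 12.32, 12.26 and 12.35 to 11.71, 11.25 and 11.57 (-0.80 ± 0.17, adjusted p = 0.00074). SP1L2, of a family of microtubule-bound proteins, rose by 1.29 ± 0.33.

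Many nuclear genes of the photosynthetic membrane were lower at 6am. Of 28 measured genes for antenna, photosystem, ATP synthase, NDH complex and thylakoid assembly proteins, 16 were lower at 6am and 0 higher, beside 12.7% of all probe sets lower. The median of the group was 11.70 or 11.71 on all 12am arrays and 10.84 to 10.92 on the 6am arrays, and the median of the 28 differences was -0.54. Without 6am replicate 1, 14 were lower (median -0.56), and without replicate 2 there were 6 (median -0.36). With arrays set to the same spike-in level 0 were called (median -0.24). LHCB4.2 (AT3G08940), the minor antenna protein CP29, was at 14.08, 13.95 and 14.04 at 12am and 13.36, 12.64 and 12.80 at 6am (-1.09 ± 0.16, adjusted p = 1.4e-05). The groups of its paralog LHCB4.1 overlapped (-0.43 ± 0.13), and was not called without 6am replicate 2 or 3 or 12am replicate 1 or 2.

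PIFI (AT3G15840), a stromal protein needed for electron flow through the NDH complex, fell most in the group, from 11.61, 11.57 and 11.30 to 9.76, 10.17 and 10.22 (-1.44 ± 0.21). ATPC1, the gamma subunit of the chloroplast ATP synthase, fell by 1.05 on the log2 scale (SE 0.19), and NdhL of the NDH complex by 0.93 (SE 0.20). LIL3:1 (-1.17 ± 0.23), a light-harvesting-like protein of chlorophyll synthesis, fell, while its paralog LIL3:2 measured 0.03 (adjusted p = 0.92). CURT1A (AT4G01150), which bends the thylakoid margins, was at 13.36, 13.21 and 13.29 against 12.37, 12.11 and 12.41 (-0.99 ± 0.15). PSBW of photosystem II fell by 0.81 (SE 0.15). Of the genes in this paragraph called lower, each stayed called when any 1 of the 6 arrays was left out. With arrays set to the same spike-in level they were not called.

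Of 7 measured genes of carbon fixation, 6 fell and 0 rose, beside 12.7% and 10.1% of all probe sets, with a median of -0.99. Without replicate 2, 1 was lower (median -1.03), and with arrays set to the same spike-in level 0 were called (median -0.69). RCA (AT2G39730), Rubisco activase, was at 14.16, 13.95 and 13.67 at 12am and 13.30, 12.53 and 11.97 at 6am (-1.32 ± 0.24, adjusted p = 0.00018). SBPASE, a regulated phosphatase of the Calvin cycle, was at 13.39, 13.35 and 13.01 against 12.21, 11.74 and 11.89 (-1.31 ± 0.17, 2.47-fold lower). PRK, phosphoribulokinase (-1.14 ± 0.21), and HPR, hydroxypyruvate reductase of photorespiration (-0.69 ± 0.12), fell too. TRXF2 (-0.99 ± 0.26), a thioredoxin that switches on Calvin cycle enzymes in the light, was not called without 6am replicate 1 (-0.76, adjusted p = 0.053). NADP-malate dehydrogenase (AT5G58330) fell by 0.80 on the log2 scale (SE 0.19). The member not called was PPDK, pyruvate orthophosphate dikinase, at 0.47 ± 0.21 (adjusted p = 0.11).

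Of 9 measured genes of the tetrapyrrole pathway, which makes chlorophyll, 6 fell and 0 rose, beside 12.7% and 10.1% of all probe sets (median -0.67). Without replicate 2, 2 were lower, and with arrays set to the same spike-in level 0 were called (median -0.37). PORB (AT4G27440), a light-dependent protochlorophyllide oxidoreductase, was at 10.76, 10.48 and 10.86 at 12am and 9.61, 9.89 and 9.36 at 6am (-1.08 ± 0.22). HEMA2, a glutamyl-tRNA reductase at the entry of the pathway, fell by 1.04 on the log2 scale (SE 0.23), and HEME1, a uroporphyrinogen decarboxylase, by 0.86 (SE 0.21). Its paralog HEME2 (-1.12 ± 0.35) was not called without 6am replicate 3 or 12am replicate 1. CHLI2 of magnesium chelatase (-0.67 ± 0.20) was not called without 6am replicate 1 (-0.59, adjusted p = 0.059). LrgB (AT1G32080), the plastid translocator of glycolate and glycerate in photorespiration, fell further than any of these, from 9.57, 9.63 and 8.83 to 7.01, 7.17 and 7.02 (-2.28 ± 0.24).

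**Figure D2:**
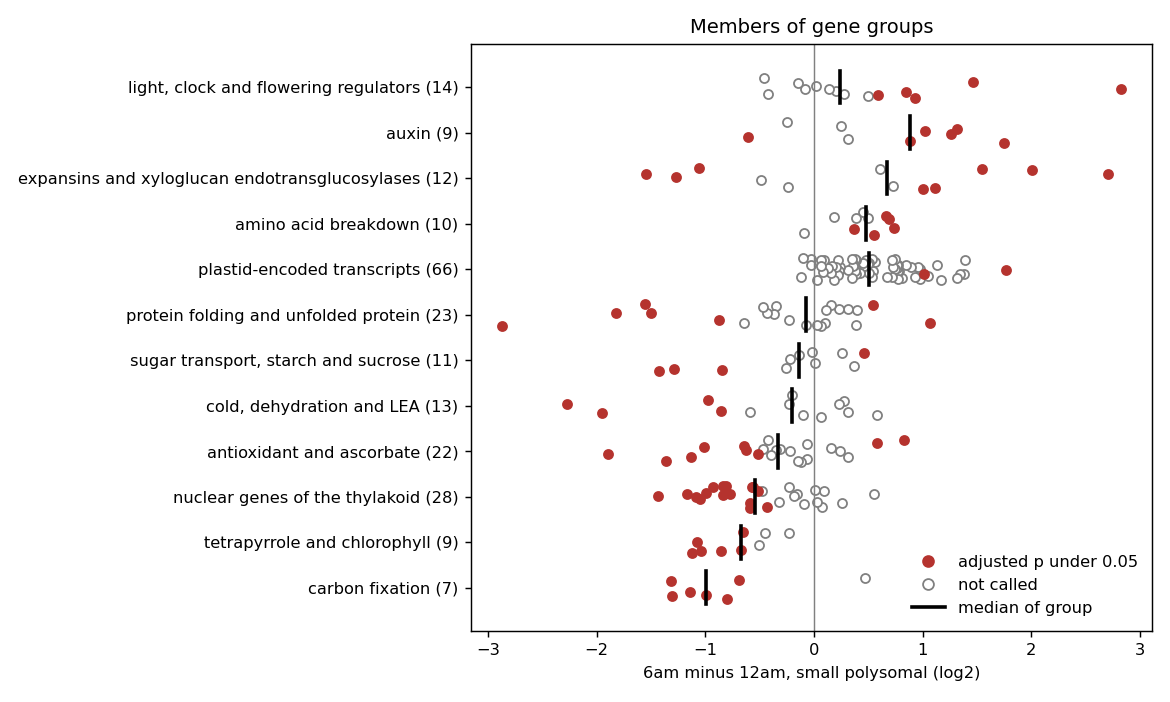
Difference of 6am minus 12am in small polysomal RNA (x axis, log2) for each measured member of 12 gene groups, with the number measured in brackets; filled points passed an adjusted p of 0.05 and black bars are medians. The bars of carbon fixation (-0.99), tetrapyrrole (-0.67) and thylakoid genes (-0.54) lie to the left and those of auxin (0.88) and expansin and XTH genes (0.67) to the right, with members on both sides in the latter.

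Transcripts of the plastid genome behaved unlike the nuclear genes for the same membrane, and their result hung on 1 array. Plastid genes are read by the plastid's own polymerases, and their transcripts are translated on plastid ribosomes. Of 66 measured members, 2 were called higher and 0 lower, beside 10.1% and 12.7% of all probe sets. The median difference was 0.51, and 62 members had a higher mean at 6am. The group median was 10.35, 10.50 and 10.07 on the 12am arrays and 11.55, 10.45 and 10.35 on the 6am arrays. Without 6am replicate 1 the median was 0.15 and 0 members were called. The same array had the highest spike-in mean, and the part of that in this result was not tested.

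The 2 called members encode reaction centre proteins. psbD, the D2 protein of photosystem II, was at 5.77, 6.01 and 4.85 at 12am and 8.53, 6.77 and 6.66 at 6am (1.77 ± 0.44, adjusted p = 0.0039). Its 3 values of 6am lay above all of 12am, but it was not called without 6am replicate 1 (1.17, adjusted p = 0.055). psaB of photosystem I was at 11.92, 11.84 and 10.83 against 12.93, 12.46 and 12.22 (1.01 ± 0.29, adjusted p = 0.012), and was not called without 6am replicate 1 or 12am replicate 3. All 5 measured mitochondrial transcripts also had their highest value on 6am replicate 1, and none was called (median 0.67, and 0.34 without that array). Labelling began with oligo(dT), so organellar values cover only RNA that it primes.

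**Figure D3:**
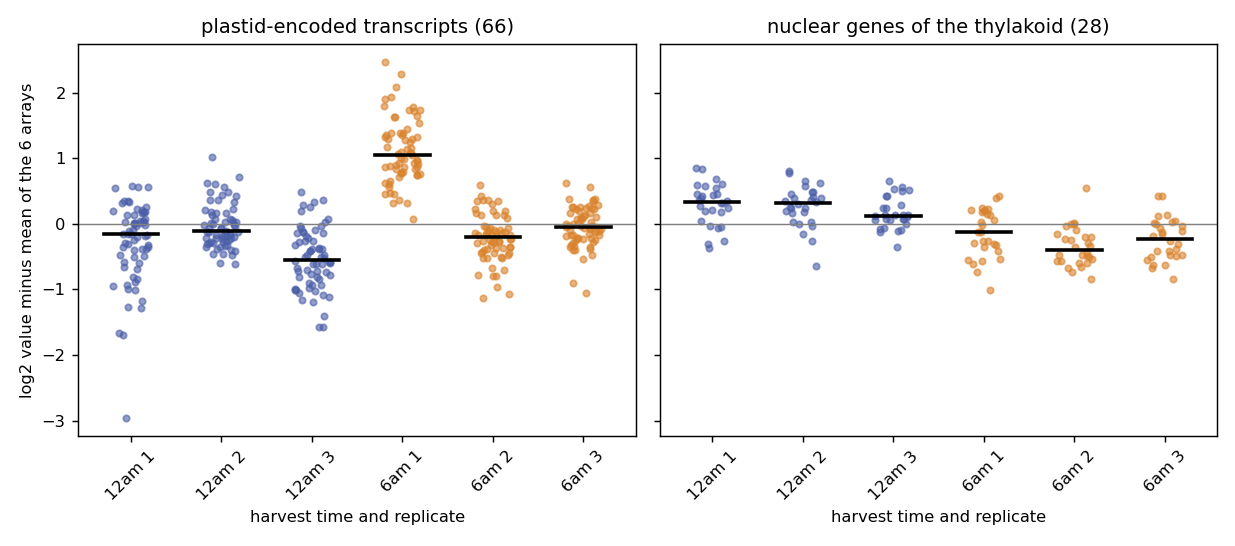
Log2 value minus the transcript's mean over the 6 arrays (y axis) for 66 plastid-encoded transcripts (left) and 28 nuclear genes of the thylakoid (right), by array; 12am in blue, 6am in orange, bars are medians. Plastid transcripts stand high on 6am replicate 1 alone, whereas the medians of the nuclear genes lie lower on all 3 of the 6am arrays.

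Genes of sugar handling changed in both directions, and the called genes of amino acid breakdown were higher at 6am. The sucrose-phosphate synthase gene ATSPS4F (AT4G10120), of the enzyme that sets the rate of sucrose synthesis, was at 10.55, 10.65 and 10.44 at 12am and 9.39, 8.77 and 9.19 at 6am (-1.43 ± 0.17, adjusted p = 3.8e-07). SWEET17, a fructose carrier of the vacuole membrane, fell from 7.67, 7.67 and 7.03 to 6.24, 6.35 and 5.91 (-1.29 ± 0.26). Its relative SWEET16 (-0.85 ± 0.29) was not called without 6am replicate 2 or 3 or 12am replicate 1 or 2. F2KP, which makes and breaks the regulator fructose 2,6-bisphosphate, was called higher (0.46 ± 0.15), but not without 6am replicate 1 or 12am replicate 3. In all, 3 of 11 measured genes of sugar transport, starch and sucrose fell and 1 rose, beside 12.7% and 10.1% of all probe sets. Their median was -0.14, and 0.16 with arrays set to the same spike-in level.

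Of 10 measured genes of amino acid breakdown, a fuel for mitochondria when sugar runs low, 5 rose and 0 fell, beside 10.1% and 12.7% of all probe sets (median 0.47). With arrays set to the same spike-in level 0 were called, and without 12am replicate 1 or without replicate 2 there was 1. DELTA-OAT (AT5G46180), ornithine aminotransferase, was at 5.85, 6.45 and 6.23 at 12am and at 6.81 or above on each 6am array (0.74 ± 0.18), and remained called without any 1 array. The other 4 calls were lost when certain single arrays were left out. ETFQO, which passes electrons from this breakdown to the respiratory chain (0.66 ± 0.18), and ALDH6B2 of valine breakdown (0.69 ± 0.21) were not called without 6am replicate 1 or 12am replicate 1. IVD of leucine breakdown (0.55 ± 0.20) was not called without any array but 6am replicate 2, nor ETFBETA (0.37 ± 0.13), a subunit of the electron transfer flavoprotein, without any but 6am replicate 1. Without 6am replicate 1, 2 of the 10 were called. MCCA, also of leucine breakdown, was at 12.79, 13.08 and 12.85 against 13.39, 13.23 and 13.45 (0.45 ± 0.19, adjusted p = 0.077), after 10.04 at 6pm.

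**Figure D4:**
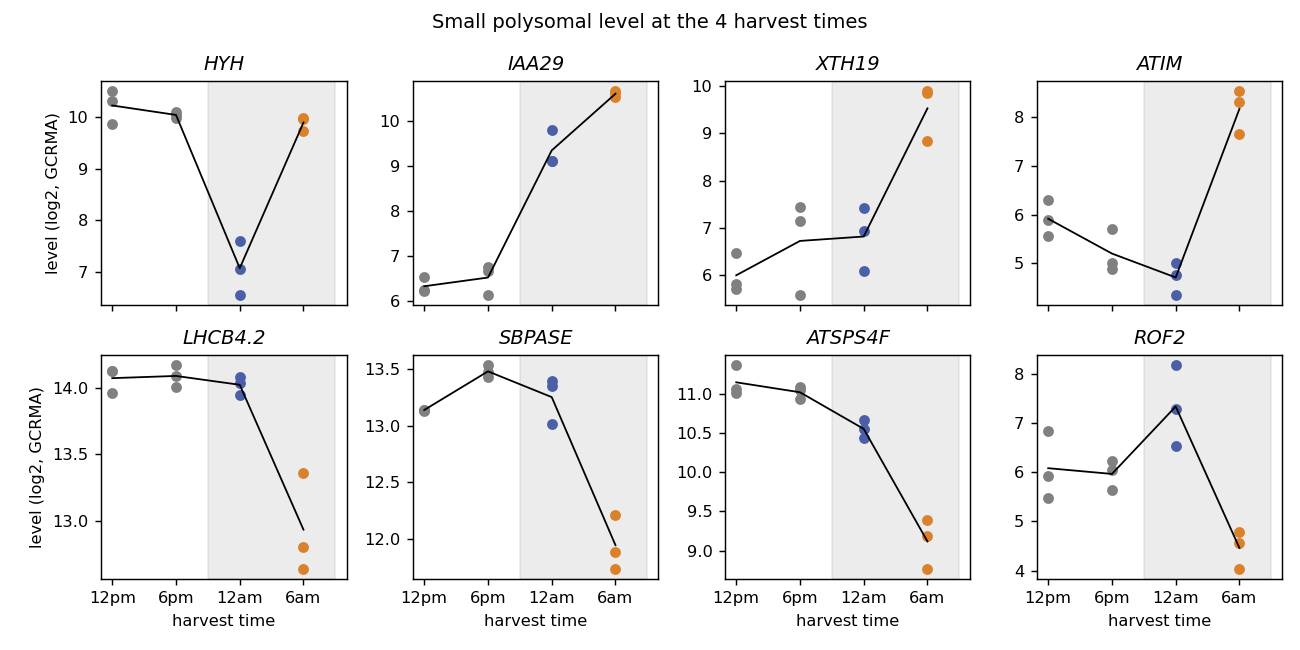
Log2 small polysomal level (y axis) of 8 genes at 12pm, 6pm, 12am and 6am (x axis); points are arrays, lines join means of 3, and grey marks the 2 harvests that follow darkness. IAA29 was at 6.32 and 6.52 in the light, HYH at 10.22 and 10.04, and LHCB4.2 near 14.07 except at 6am.

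Some chaperone genes were among the deepest falls. Of 24 listed genes of the heat response 2 were measured: ROF2 fell and BOB1 was not called (0.16 ± 0.18, limma adjusted p = 0.56). ROF2 (AT5G48570), a peptidyl-prolyl isomerase that binds HSP90, was 7.33-fold lower at 6am: it was at 7.29, 8.17 and 6.54 at 12am and at 4.04, 4.56 and 4.78 at 6am (-2.87 ± 0.37, adjusted p = 1.5e-06). The 6am mean lies under 5, so the size is less certain than the direction. Hop3, an HSP70 and HSP90 organizing protein, fell by 1.82 on the log2 scale (SE 0.35) to a mean near the lower end. Fes1B, an exchange factor of HSP70, was tight, at 8.73, 8.65 and 8.61 against 7.11, 6.89 and 7.29 (-1.56 ± 0.19). Cpn60beta2 of the plastid chaperonin fell from 10.81, 11.20 and 10.99 to 9.20, 9.53 and 9.78 (-1.50 ± 0.20), and ATERDJ3B of the endoplasmic reticulum by 0.87 (SE 0.19).

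Of 23 measured genes of protein folding, 5 fell and 2 rose, beside 12.7% and 10.1% of all probe sets. Their median was -0.07, and 0.23 with arrays set to the same spike-in level. The 2 that rose were BZIP17 (1.07 ± 0.26), a membrane-bound factor of the unfolded protein response, and Fes1C (0.54 ± 0.19). BZIP17 was not called without 12am replicate 3 (0.65, adjusted p = 0.058), nor Fes1C without any array but 6am replicate 2. Within this family Fes1B fell, while the higher call of Fes1C was not stable. The genes were not tested against each other.

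Of 13 measured genes of cold, dehydration and late embryogenesis proteins, 4 fell and 0 rose, beside 12.7% and 10.1% of all probe sets. Their median was -0.20, but 0.03 without 6am replicate 1 and 0.10 with arrays set to the same spike-in level. COR15B (AT2G42530), which protects chloroplast membranes in frost, was at 9.39, 9.81 and 9.67 at 12am and 5.85, 8.21 and 7.99 at 6am (-2.27 ± 0.44, adjusted p = 0.00039). COR15A was at 9.20, 9.48 and 9.63 against 5.94, 8.50 and 8.03 (-1.95 ± 0.51), and not called without 6am replicate 1 (-1.17, adjusted p = 0.085). In both, 6am replicate 1 was the lowest array by far, yet the other 6am arrays also lay below all of 12am. HVA22C, of a family of abscisic acid-induced membrane proteins, was tight at 9.48, 9.53 and 9.52 against 8.53, 8.48 and 8.59 (-0.98 ± 0.16). LEA26 (AT2G44060) fell by 0.86 on the log2 scale (SE 0.20).

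Of 22 measured redox genes, 7 were lower and 2 higher, beside 12.7% and 10.1% of all probe sets (median -0.33). With arrays set to the same spike-in level 0 were called (median -0.03). MSRB6 (AT4G04840), which repairs oxidized methionine, was at 9.76, 9.30 and 8.61 at 12am and 7.06, 7.48 and 7.41 at 6am (-1.90 ± 0.23, adjusted p = 7.7e-07). TAPX, the ascorbate peroxidase of the thylakoid, fell from 10.47, 10.59 and 10.34 to 9.21, 9.37 and 9.42 (-1.13 ± 0.18). The glutathione transferase gene GSTL3 fell by 1.01 on the log2 scale (SE 0.21). GSTU20 (-1.36 ± 0.35) was not called without 6am replicate 1 (-0.91, adjusted p = 0.063). The 2 higher genes were GR1, a glutathione reductase (0.58 ± 0.16), and GSTU16 (0.83 ± 0.23). GR1 was not called without 6am replicate 3 or 12am replicate 1, nor GSTU16 without 12am replicate 3 (0.69, adjusted p = 0.051).

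Genes of the nucleus gave the largest rise of all genes with a symbol. ATIM (AT5G52910), the plant relative of the animal gene TIMELESS, was at 5.01, 4.36 and 4.76 at 12am and 8.53, 7.66 and 8.31 at 6am (3.46 ± 0.31, 11-fold, adjusted p = 1.7e-09), with a 12am mean under 5. INO80 (AT3G57300), the ATPase of a chromatin remodelling complex, rose from 8.50, 8.89 and 8.87 to 10.14, 9.97 and 10.38 (1.41 ± 0.25). LACHESIS (LIS), a relative of a splicing factor, rose by 1.31 ± 0.18 and NRPA1, the largest subunit of RNA polymerase I, by 1.02 ± 0.28. NRPA1 was not called without 6am replicate 2 (0.76, adjusted p = 0.072). Of 10 measured RNA polymerase subunit genes 2 rose and 0 fell, beside 10.1% and 12.7% of all probe sets. Their median was 0.06, but -0.08 without 6am replicate 3.

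Some single genes stood out in other pathways. UGT85A4, a glycosyltransferase, had the smallest adjusted p among the falls of genes with a symbol (2.2e-09), with 8.17, 8.01 and 7.80 at 12am and 6.35, 6.16 and 6.04 at 6am (-1.81 ± 0.16). APS3, an ATP sulfurylase that opens sulfate assimilation, fell from 8.05, 7.93 and 8.02 to 5.98, 6.57 and 6.37 (-1.69 ± 0.24). BCAT4, the first enzyme of methionine-derived glucosinolate synthesis, was at 8.54, 8.57 and 8.40 against 5.26, 7.33 and 7.68 (-1.75 ± 0.52). It was not called without 6am replicate 1 (adjusted p = 0.17). The allantoinase gene ALN of purine breakdown (-1.77 ± 0.20) and the thionin gene THI2.2 (-1.95 ± 0.28) fell. ATG8B, a tag of autophagosomes, was at 9.03, 8.85 and 9.52 against 10.41, 10.09 and 10.43 (1.18 ± 0.17). UPB1, a bHLH factor that controls peroxidases in the root, rose by 1.71 ± 0.28 from a 12am mean of 4.96.

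Markers of cell types were few. The root marker PYK10, a beta-glucosidase, was at 11.84, 11.88 and 12.03 at 12am and 10.92, 10.87 and 11.06 at 6am (-0.97 ± 0.22), although the labels give the aerial part as the tissue. The guard cell factor FMA was at 6.85, 6.48 and 6.66 against 7.33, 7.23 and 7.23 (0.60 ± 0.21), but its call was lost without any array but 12am replicate 1. The trichome factor TRY did not pass (-0.12 ± 0.40, adjusted p = 0.86). The part of these in the results above was not tested. The mesophyll marker was RCA, given above.

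The last question was whether the change from 12am to 6am differs between fractions. The design gives 3 replicates for each time, so fractions of 1 time and number were taken to share their plants, which the labels do not state outright. Of the 2884 calls in small polysomal RNA, 1562 were also called in large polysomal RNA in the same direction (54.2%, or 58.5% of the calls there) and 1 in the opposite one. In non-polysomal RNA 2122 were called in the same direction (73.6%, or 48.8% of the calls there) and 5 in the opposite one. The difference of the changes itself passed the test for 1 probe set (0.00791%) between small and large polysomal RNA and for 16 (0.127%) between small polysomal and non-polysomal RNA, of which 7 (0.0554%) were higher and 9 (0.0712%) lower in small polysomal RNA. At an unadjusted p under 0.05 these were 946 (7.49%) and 1044 (8.26%). The median SE of such a difference was 0.3.

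Fractions with the same time and replicate number deviated together (r of 0.325 to 0.619 over 12 pairs), and the number was taken to mark a shared extract. Fractions of unlike number were not compared. Arrays of 6am and 12am with the same number had r of 0.371, 0.0124 and 0.378. The correlation thus cannot tell a shared extract from a batch by number, and the calls made with the block rest on that assumption. With the extract as a random block 153 probe sets differed between small and large polysomal RNA, 132 of them with a lower value of the change in small, and 172 between small polysomal and non-polysomal RNA. CURT1A was among the 153: its change was -0.99 in small and -0.07 in large polysomal RNA (difference -0.92 ± 0.17, adjusted p = 0.01, and 0.26 without the block). XTH32 was at -1.27 in small and -0.16 in large polysomal RNA (difference -1.11 ± 0.24, adjusted p = 0.023, and 0.34 without the block). Its large polysomal means were 4.61 at 12am and 4.45 at 6am, both under 5, so the size of this difference is uncertain. EXPA16 moved less in small (1.00) than in large polysomal RNA (2.94, difference -1.94 ± 0.33, adjusted p = 0.0038, and 0.087 without the block). MSRB5, a methionine sulfoxide reductase, was at -0.64 in small and 0.27 in large polysomal RNA (difference -0.90 ± 0.23, adjusted p = 0.047, and 0.35 without the block), and its own call in small polysomal RNA was lost without 12am replicate 1. In contrast, ATIM rose more in small (3.46) than in large polysomal RNA (2.05, difference 1.41 ± 0.34, adjusted p = 0.038, and 0.37 without the block). These 5 genes were picked after their values were seen.

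IYO (MINIYO), which works with RNA polymerase II when cells begin to differentiate, passed the test against non-polysomal RNA also without a block. It was at 3.18, 3.18 and 2.97 at 12am and 5.38, 4.75 and 4.89 at 6am in small polysomal RNA (1.90 ± 0.16), against 0.44 in non-polysomal RNA (difference 1.45 ± 0.23, adjusted p = 0.0048). Its means are near or under 5. In non-polysomal RNA they were 2.30 at 12am and 2.75 at 6am, near the lower end where values are compressed. The size of the difference is therefore uncertain. Some genes named above gave similar changes in the small polysomal, large polysomal and non-polysomal fractions. SBPASE was at -1.31 in small, -1.04 in large and -1.49 in non-polysomal RNA. IAA29 was at 1.26, 1.31 and 1.07, and XTH19 at 2.71, 2.79 and 2.58. Others changed less in large polysomal RNA: FY was at 0.85, 0.05 and 1.28, and PSBW at -0.81, -0.18 and -0.94. For neither did the difference from large polysomal RNA pass without a block (limma adjusted p = 0.51 and 0.4). How many named genes took each course was not counted.

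**Figure D5:**
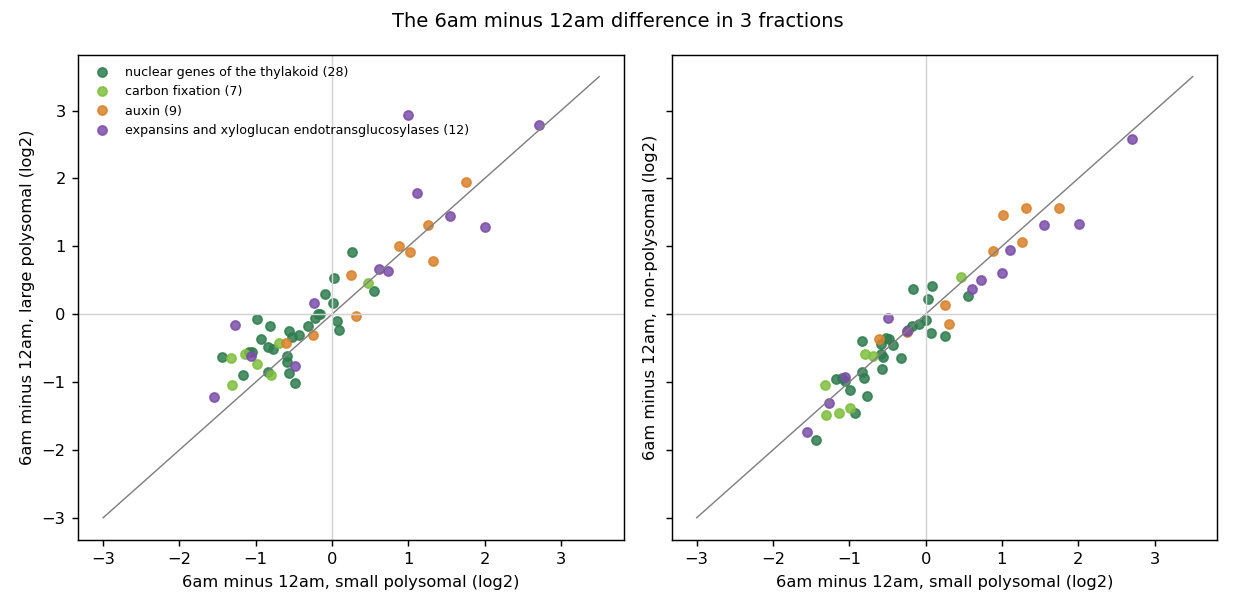
Difference of 6am minus 12am in small polysomal RNA (x axis, log2) against that in large polysomal (left) and non-polysomal RNA (right) for members of 4 groups, numbers measured in brackets; the diagonal marks equal differences. EXPA16, at 1.00 in small and 2.94 in large polysomal RNA, lies farthest above it on the left.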

How the data were processed

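The authors deposited log2 expression values per probe set of Affymetrix arrays (1 array per time, fraction and replicate, RNA labelled after oligo(dT) priming per the labels' protocols). Per the submitters' processing notes they used GCRMA with affy 1.42.3 in R 3.1; other settings are not given in the sources used here. Arrays have no read depth, so precision is limited by how many there are. Here 64 control probe sets were left out of 22810, and 12635 were kept that reached 5 (log2) on 3 or more of the 36 arrays. Of these, 6824 name 1 gene, 263 several and 5548 none in the platform annotation, with symbols updated through the RefSeq gene table, so lists cover part of their members. The probe set with the highest mean stood for a gene (6804 genes, 987 with a symbol).

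limma 3.58.1 in R 4.3.3 (lmFit, eBayes) was fitted to 12 group means (24 residual degrees of freedom). Its p-values were adjusted by the method of Benjamini and Hochberg over all probe sets kept, and called means an adjusted p under 0.05. SE values are those of the fit. With 3 arrays against 3, an exact permutation test of 1 value cannot go below p = 0.1. The fit was run on simulated data with errors independent between arrays. That run therefore does not cover shared extracts or the contrasts between fractions.

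The members, gene lists and alternatives were chosen with earlier results of these data known, and part of the lists were composed from the annotation's symbols after the files were read. Lists are described by counts and medians, with no set test. The rule for named genes took the largest rises and falls among genes called with arrays that did not overlap. It also took the 3 members of each list of smallest p, all members of short lists and the clock genes, called or not. Genes called for a difference between fractions were added. Other list members were added to the text after their values were seen. Samples were grouped by labelled time and fraction. Fractions of the same time and replicate number were taken to come from 1 extract, from the design (3 replicates per time). Their deviations from the group means correlated with r of 0.325 to 0.619 in all 12 pairs with a small polysomal array. Fractions of unlike number were not compared, so this correlation does not by itself show a shared extract. The extract was used as a block on that assumption. Alternatives were filters, 4 scalings (1 of them to equal spike-in signal), the variance model, blocks, subsets of arrays and each array left out. No sequences are printed.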

Additional observations from a re-analysis of the deposited data

Results flagged for a closer look

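The change from 12am to 6am in small polysomal RNA differed from that in another fraction for 12 named genes (limma interaction, adjusted p under 0.05). Against large polysomal RNA this was AT5G57770 (difference 1.71 ± 0.26, adjusted p = 0.0025), whose mean went from 2.41 to 4.49 in small and from 2.44 to 2.81 in large polysomal RNA, all under 5.

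Against non-polysomal RNA, 4 were higher in small polysomal RNA: AT1G10770 (2.44), AT5G41650 (1.96), AT3G05810 (1.88) and IYO (1.45). Of these, AT3G05810 went from 7.02 to 7.82 in small polysomal RNA and from 8.32 to 7.24 in non-polysomal RNA. AT1G10770 went from 3.02 to 2.60 and from 6.02 to 3.16, so its small polysomal level was near the lower end at both times. The lower ones were AT4G28230 (-2.11), AT5G50010 (-1.77), AT1G15940 (-1.61), AT5G58410 (-1.53), AT1G61690 (-1.35), AT4G28080 (-1.35) and AT4G34140 (-1.29). Of these, AT1G15940 went from 7.91 to 8.41 in small polysomal and from 4.73 to 6.85 in non-polysomal RNA. The level of AT4G28080 went from 10.20 to 10.41 and from 6.98 to 8.54. All 6 group means of AT5G50010 were under 5, as were all but 1 of AT4G34140 and all of AT5G41650, so their sizes are uncertain. Groups of 3 arrays are too small for a test of single outlying arrays.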

How the results depend on the processing

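The count of calls (2884, with 1274 higher and 1610 lower) moved over 1.5 times with the spike-in shift (154, with 110 and 44), at 1 probe set per gene (1440, 650 and 790, with fewer tested), at 2-fold or more (923, 355 and 568) and without replicate 2. Leaving out each replicate number gave 706 to 2494 calls (281 to 1111 higher, 425 to 1383 lower), and each single array 1953 to 2571 (808 to 1113 and 1145 to 1484). The count that differed from large polysomal RNA (1) was 12 with no filter, 0 at a filter of 7, with the spike-in shift, with trended robust variance, with only the arrays compared and without each replicate number, and 1 without each single array. The count that differed from non-polysomal RNA (16) was 33, 9, 0 with the spike-in shift, 1 with only the arrays compared, 0 to 23 without each replicate number and 8 to 18 without each single array. The extract block gave 153 and 172. Deviations of 6am and 12am arrays with the same replicate number correlated with r of 0.371, 0.0124 and 0.378. For unlike numbers r was -0.446 to 0.0432. Whether a number marks a shared batch was not tested, and the main fit leaves the number out. The replicate block gave 3556 calls, 5 and 34. List medians larger than the spread between arrays that changed sign were cold, dehydration and LEA (-0.20; 0.10 with the spike-in shift, -0.33 to 0.03 with arrays left out, highest without 6am replicate 1), cell wall (-0.17; 0.13 with the spike-in shift, -0.23 to 0.03 with arrays left out, highest without 12am replicate 1), trichome birefringence-like (-0.22; 0.08 with the spike-in shift) and RNA polymerase subunits (0.06; -0.08 without 6am replicate 3 and -0.04 without replicate 3, in a range of -0.08 to 0.20). With the spike-in shift the medians of sugar genes (-0.14 to 0.16), protein folding (-0.07 to 0.23), membrane trafficking (-0.13 to 0.17) and UDP-glycosyltransferases (-0.04 to 0.26) also changed sign, as did, within or near that spread, WRKY, bZIP and MYC factors (-0.04 without 6am replicate 3) and citrate and respiration (as low as -0.06 without 6am replicate 1). The causes were not tested, except that fewer arrays or probe sets enter some of these fits.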

Other observations

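Of all probe sets, 10.1% were called higher and 12.7% lower, the shares against which the counts of the further groups stand. Of 25 measured genes of membrane trafficking, 4 fell and 1 rose (median -0.13, and 0.17 with the spike-in shift). ATRER1A, a retrieval receptor of the endoplasmic reticulum, fell from 9.57, 9.21 and 9.32 to 8.42, 7.61 and 8.40 (-1.22 ± 0.25, limma adjusted p = 0.00078), and SECE1 of the thylakoid protein translocase by 1.05 on the log2 scale (SE 0.24). Of 27 ubiquitin enzyme genes, 3 rose and 1 fell (median 0.11). The one that fell was UBC19, an E2 enzyme, from 10.98, 10.67 and 10.51 to 10.02, 9.55 and 9.22 (-1.13 ± 0.24).

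Of 18 genes of mRNA splicing and decay, 2 rose and 1 fell (median 0.17). PRP39, a splicing factor, was at 7.58, 7.81 and 8.06 at 12am and 8.62, 8.59 and 8.67 at 6am (0.82 ± 0.19), and LSM1A of the decapping complex at 9.57, 9.47 and 9.31 against 8.69, 8.43 and 8.78 (-0.82 ± 0.20). Of 19 genes of the citrate cycle and respiration, 2 rose and 2 fell (median 0.01). PDC2, a pyruvate decarboxylase gene, was at 8.43, 8.34 and 8.20 at 12am, at most 7.22 at 6am, and fell (-1.25 ± 0.19). Of 21 WRKY, bZIP and MYC factors, 4 rose and 2 fell (median 0.07). EEL, a bZIP factor of late embryogenesis, rose from 7.82, 7.61 and 8.44 to 8.94, 8.81 and 9.12 (1.00 ± 0.25). These genes were picked after their values were seen.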
